A study of Arabidopsis thaliana with 12 samples.

Results

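FZL (AT1G03160) and AT1G32220 are nuclear genes of Arabidopsis thaliana whose proteins belong to the inner membranes of the chloroplast. Each is the single gene assigned by the platform annotation to 1 feature of the array, feature 507 for FZL and feature 814 for AT1G32220, so the account covers 2 of the 691 genes that could be named and 2 of the 3439 features. Both genes were chosen by their function and on their measured intensities in the mutant and in wild type, which were already known, so the difference between the genotypes is given as a description, with no test of it. The samples were 6 of the pete1 pete2 double mutant, which has neither isoform of plastocyanin, and 6 of wild type (WT). Both genotypes were of the Columbia 0 ecotype and were grown on MS medium, a mineral medium for plant culture. Total RNA was hybridised to a one-colour array. The labels used here give no tissue, age or number of plants, and the platform annotation assigned 0 features to PETE1 or PETE2, so the genotype labels have no check from those transcripts.

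Plastocyanin, a small soluble copper protein inside the thylakoids, passes electrons from the cytochrome b6f complex to photosystem I. The thylakoids in which this transfer takes place are folded into stacked grana and unstacked lamellae. FZL is a dynamin-like GTPase of chloroplast membranes, and mutants without it are known for disturbed thylakoid organisation. Plastoglobules are lipid particles attached to the thylakoids that hold tocopherol, plastoquinone and other prenyl lipids together with a small set of proteins. AT1G32220 encodes one of these proteins, with an NAD(P)-binding fold.

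The deposited values were relative intensities between 0 and 100, and their unit, centring and background treatment are not given in the sources used here. Column totals lay between 3493 and 3778 and column medians between 0.341 and 0.659. Within each genotype, columns 1 and 2, columns 3 and 4, and columns 5 and 6 agreed closely. Such columns differed by a median over features of 0.10 to 0.13 (absolute log2), against 0.30 to 0.54 for other columns of that genotype. Each of these pairs was counted as 1 replicate (n = 3 per genotype) and is called pair 1, 2 or 3 below. Nothing in the labels says that the pairs came from separate cultures.

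FZL gave a signal that differed more among the pairs of 1 genotype than between the genotypes. Its deposited intensity in the pete1 pete2 columns 1 to 6 was 0.946, 1.02, 0.911, 0.977, 1.39 and 1.47. In the WT columns 1 to 6 it was 1.05, 1.05, 1.63, 1.66, 1.35 and 1.39. The mutant columns 5 and 6 therefore lay within the WT range, and the other 4 mutant columns lay below every WT column. After quantile normalization, which gives every column the same distribution, the pair values were 1.12, 0.782 and 1.53 in pete1 pete2 and 0.887, 1.59 and 1.35 in WT. Here the groups overlapped: mutant pair 2 was the lowest of the 6 pairs, WT pair 2 was the highest, and WT pair 1 lay below mutant pairs 1 and 3.

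The normalised intensity of FZL averaged 1.14 ± 0.372 in pete1 pete2 and 1.28 ± 0.359 in WT (SD, n = 3 each). The log2 difference, mutant minus WT, was -0.17 (SE 0.34), which is 88.9% of the WT level. Of the 9 possible differences between a mutant pair and a WT pair, 6 were negative, and they ran from -1.03 to 0.78 on the log2 scale. Among pairs with the same number the log2 difference was 0.34, -1.03 and 0.18 for pairs 1, 2 and 3. Only the pairs numbered 2 had a lower FZL signal in the mutant, though the numbers were not taken as a pairing of the genotypes.

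AT1G32220 had a lower mean signal in the mutant. Its deposited intensity in the pete1 pete2 columns 1 to 6 was 0.171, 0.217, 0.463, 0.343, 0.101 and 0.0692. In the WT columns 1 to 6 it was 0.551, 0.572, 0.469, 0.439, 0.427 and 0.387. As deposited, 5 of the 6 mutant columns lay below every WT column, and mutant column 3 lay inside the WT range. After quantile normalization the pair values were 0.255, 0.294 and 0.165 in pete1 pete2 and 0.457, 0.473 and 0.389 in WT. The lowest were those of mutant pair 3, and all 3 mutant pairs lay below all 3 WT pairs.

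The normalised intensity of AT1G32220 averaged 0.238 ± 0.0666 in pete1 pete2 and 0.440 ± 0.0446 in WT (SD, n = 3 each). The log2 difference was -0.92 (SE 0.25), or 52.7% of the WT level. All 9 differences between a mutant pair and a WT pair were negative, from -1.52 to -0.40 on the log2 scale. Same-numbered pairs, again not taken as matched, differed by -0.84, -0.68 and -1.24. AT1G32220 was thus the 1 of the 2 genes whose groups did not overlap. Over all 3438 tested features, 4.36% had the 3 mutant pairs below the 3 WT pairs and 5.56% had them above.

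**Figure D1:**
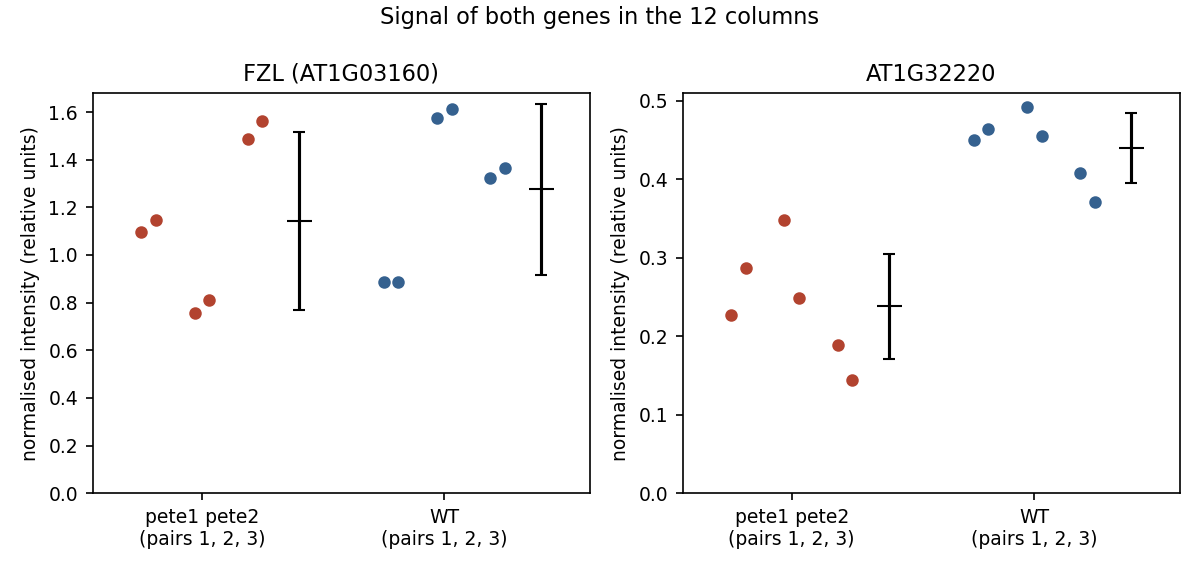
Normalised intensity (relative units, linear axis from 0) of FZL and AT1G32220 in each of the 12 columns, with pete1 pete2 on the left and WT on the right of each panel. Points close together are the 2 columns of a pair, and the bar beside each group gives the mean and SD over its 3 pairs: the groups overlap for FZL (1.14 ± 0.372 in pete1 pete2 and 1.28 ± 0.359 in WT) and not for AT1G32220 (0.238 ± 0.0666 in pete1 pete2 and 0.440 ± 0.0446 in WT).

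Both genes were also described against the spread of all features. The log2 difference of AT1G32220 had 1.51% of all tested features below it, and that of FZL 31.6%, where the median of all features was -0.01. The SD of FZL over 3 pairs was 0.48 in pete1 pete2 and 0.44 in WT on the log2 scale, against medians over all features of 0.35 in pete1 pete2 and 0.32 in WT. AT1G32220 had an SD of 0.44 in pete1 pete2 and 0.15 in WT. The mutant pairs of AT1G32220 were thus spread more widely than its WT pairs, whereas those of FZL had an SD of similar size in both genotypes.

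The agreement of the paired columns differed between the genes. For FZL the 2 columns of a pair differed by 0.067 to 0.0998 (log2) in pete1 pete2 and by 0.0066 to 0.045 in WT. For AT1G32220 they differed by 0.34 to 0.48 in pete1 pete2 and by 0.044 to 0.14 in WT. In each mutant pair between 82.8% and 91.2% of all features had a smaller difference than AT1G32220, while in the WT pairs the share was between 26.7% and 61.1%. The signal of AT1G32220 thus repeated less well in the mutant columns, where it was also dimmer. Its normalised signal there was 6.38 to 15.5 times the floor of 0.0225, the value to which lower intensities were raised, against 16.5 to 21.8 times in WT.

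Over the mutant pairs the deposited AT1G32220 signal rose with the column median. The deposited FZL signal ran in the reverse order of the column medians over the pairs of both genotypes. The column medians averaged 0.401, 0.659 and 0.342 for pete1 pete2 pairs 1, 2 and 3, against 0.625, 0.487 and 0.522 for the WT pairs. Mutant pairs 1 and 3, with the lowest medians, also had the lowest deposited AT1G32220 signal, and mutant pair 2, with the highest median, had the deposited value that reached into the WT range. In WT, AT1G32220 was lowest in pair 3, which did not have the lowest WT median. For FZL, mutant pair 3 had the lowest median and the highest deposited signal of the mutant. WT pair 1 had the highest WT median and the lowest WT signal of FZL. Divided by the median of its own column, AT1G32220 stood at 0.203 to 0.703 in the mutant columns and at 0.746 to 0.967 in the WT columns, so these ratios did not overlap. The same ratio for FZL was 1.38 to 4.31 in the mutant and 1.68 to 3.39 in WT, with the highest values in mutant pair 3 and the lowest in mutant pair 2. The part of the column median in either result was not tested beyond the scalings given here.

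**Figure D2:**
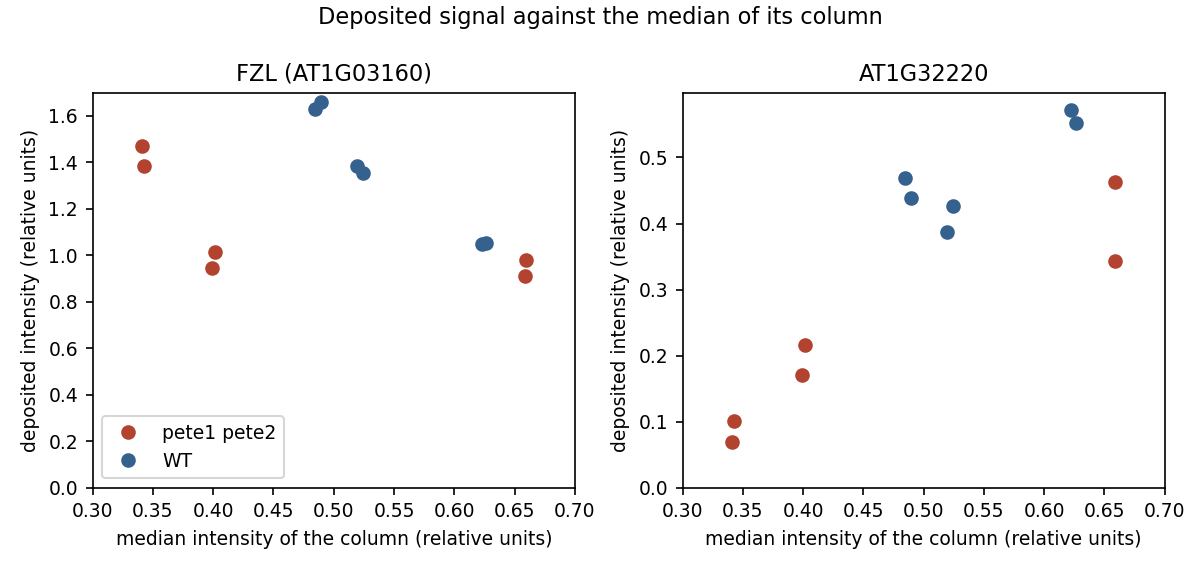
Deposited intensity of FZL and AT1G32220 (vertical axis, relative units from 0) against the median of all features in the same column (horizontal axis, relative units), with 1 point per column, 6 of pete1 pete2 and 6 of WT. The AT1G32220 points of the mutant go up with the column median, to 0.463 in column 3, and the FZL points of both genotypes lie between 0.911 and 1.66.

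Scaling moved the size of both differences. With the values as deposited, the log2 difference of AT1G32220 was -1.34 (SE 0.60), when the median of all features was itself -0.27. With columns scaled to their totals it was -1.32 (SE 0.58), with a median of all features of -0.26, and with columns centred on their medians it was -1.07 (SE 0.37). Relative to the median of all features it was -1.06 under each of these 3 scalings. That agreement is by construction, since they differ only by a factor for each column, apart from values at the floor. The pair values of AT1G32220 did not overlap under any of them, though as deposited the gap was narrow, with 0.398 for the highest mutant pair and 0.406 for the lowest WT pair.

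FZL had no stable direction. Its log2 difference was -0.28 as deposited and -0.26 scaled to the total, and -0.0069 and -0.0061 once the median of all features was subtracted. The subtracted values of FZL are alike by construction, as for AT1G32220. The log2 difference of FZL was -0.0086 with columns centred on their medians. After quantile normalization it was 0.078 without mutant pair 2 and 0.012 without WT pair 2, and -0.41 without WT pair 1 and -0.40 without mutant pair 3. For AT1G32220 the log2 difference without 1 pair ran from -1.10, without mutant pair 2, to -0.68, without mutant pair 3.

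Features with nearby numbers moved together between arrays of 1 genotype. In the 3 comparisons among WT pairs, Pearson's r over features (no independent replicates) was 0.31 to 0.48 between features 1 number apart and 0.20 to 0.40 between those 288 apart, taken as 1 row of the array. The distance of 288 was picked because these same WT comparisons correlated most at it among the longer distances tried. Its r is therefore high by choice, and no layout of the array was used to check it. The features around each gene were therefore read as well. Of 8 features at numbers near that of FZL or 1 row away, 7 were lower in pete1 pete2, with a median log2 difference of -0.21 and a range from -0.63 to 0.077. Of 10 such features around AT1G32220, 7 were lower, with a median of -0.41 and a range from -0.61 to 0.63. The 2 features next to AT1G32220, numbers 813 and 815, had log2 differences of -0.26 and -0.56. When the median deviation of the neighbours was subtracted in each column, the log2 difference of AT1G32220 was -0.66 and that of FZL was 0.11. The AT1G32220 groups still did not overlap, but the gap was narrow. On the log2 scale the highest mutant pair was at -1.43 and the lowest WT pair at -1.38.

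**Figure D3:**
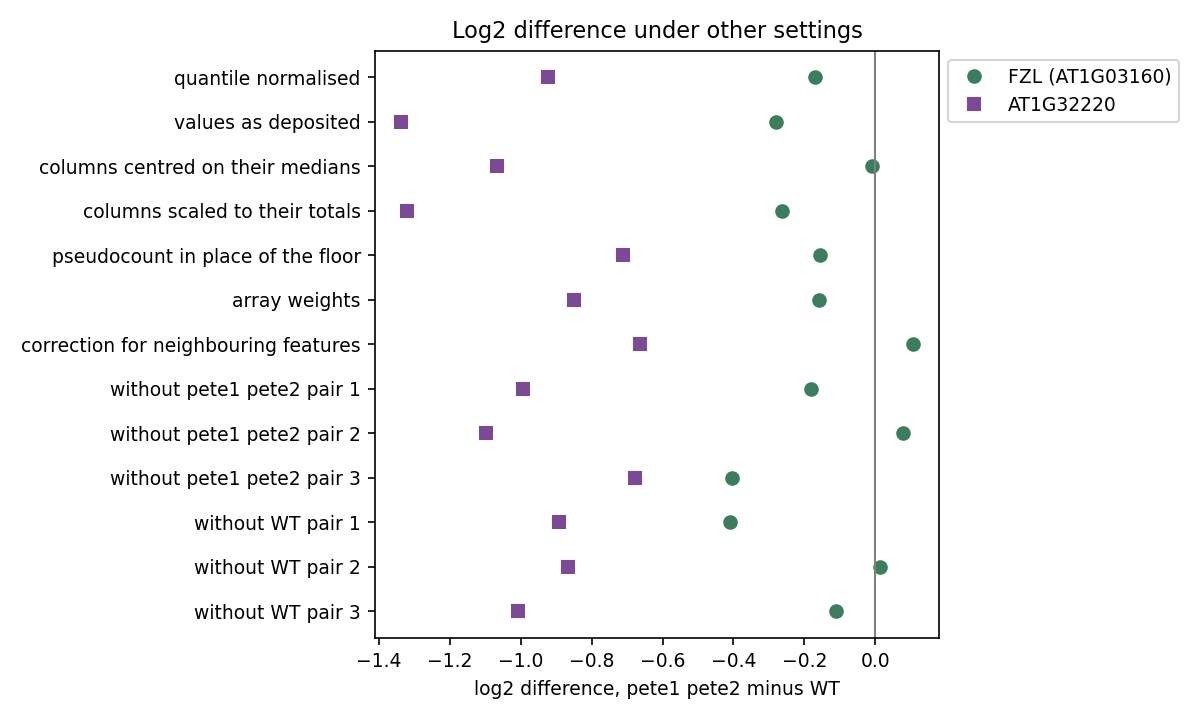
Log2 difference of FZL (circles) and AT1G32220 (squares), pete1 pete2 minus WT, under the scalings, the pseudocount, the array weights, the correction for neighbouring features and the omission of each pair. AT1G32220 is below 0 in every row, from -1.34 to -0.66, and FZL lies on both sides of 0, from -0.41 to 0.11.

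The 2 genes did not share a pattern over the 6 pairs, where Pearson's r between their log2 values was -0.14. The genes most like each were taken from 606 other genes with a feature of their own and no value at 0. Each r is over 6 pair means, few enough that 15 genes exceeded an r of 0.9 with FZL and 6 with AT1G32220. Closest to FZL were AT3G25680 (r = 0.99), AT3G47980 (r = 0.97) and AT1G32160 (r = 0.97). Like FZL, AT3G25680 was lowest in mutant pair 2 and highest in WT pair 2, with pair values of 1.02, 0.776 and 1.35 in pete1 pete2 and 0.916, 1.53 and 1.27 in WT. It was picked for its r over these same 6 pairs, so this likeness is by choice and is a description. AT3G47980 and AT1G32160 had log2 differences of -0.057 (SE 0.57) and -0.34 (SE 0.43).

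Closest to AT1G32220 were AT4G17440 (r = 0.94), AT1G63720 (r = 0.94) and AT3G25410 (r = 0.93). Because AT1G32220 differed between the genotypes, genes picked for likeness to it are lower in the mutant by choice, and their differences are a description. AT3G25410 averaged 0.265 ± 0.0245 in pete1 pete2 and 0.377 ± 0.0486 in WT (SD, n = 3 each), a log2 difference of -0.50 (SE 0.14), which was -0.85 as deposited. AT4G17440 averaged 0.907 ± 0.0762 in pete1 pete2 and 1.08 ± 0.0317 in WT, a log2 difference of -0.26 (SE 0.10), which was -0.48 as deposited. The median of all features, -0.27 as deposited, was not subtracted from the deposited difference of either gene. AT1G63720 had a log2 difference of -0.30 (SE 0.16) that rested on unlike columns, since its deposited values in the 2 columns of mutant pair 1 were 0.0305 and 0.465, and without mutant column 2 the difference was 0.26.

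Among other genes of these membranes, 9 were measured by a feature of their own, from 110 genes on 7 lists that held plastoglobule proteins, thylakoid organisation, the dynamin family and plastid division, tocopherol and plastoquinone synthesis, electron transport around plastocyanin, and markers of green leaf and of root. None of the 9 passed limma's test with Benjamini-Hochberg adjustment at 0.05. Over all tested features the same test called 1 of 3438 higher (0.0291%), an unnamed feature, and 0 lower (0%). At an unadjusted p under 0.05, 159 features were higher and 92 lower. The count of higher calls was 1 without WT pair 2 and 0 without any other pair.

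Of the 28 plastoglobule proteins, 6 were measured. The 5 other than AT1G32220 had a median log2 difference of -0.02, against -0.01 over all features, with 2 positive and 3 negative. AT4G13200 (PG18), a plastoglobule protein, had pair values of 0.326, 0.423 and 0.330 in pete1 pete2 and 0.211, 0.294 and 0.288 in WT. Its log2 difference was 0.45 (SE 0.19; limma adjusted p = 0.740), opposite in sign to that of AT1G32220, and its mutant pairs lay above its WT pairs after quantile normalization. As deposited they did not: mutant pairs 1 and 3, at 0.199 to 0.253, lay below every WT column, at 0.264 to 0.308. The log2 difference of PG18 was 0.092 as deposited and 0.11 scaled to the total, where the median of all features was -0.27 and -0.26.

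AT3G27110 (PGM48), a plastoglobule metallopeptidase, had a log2 difference of -0.24 (SE 0.13; limma adjusted p = 0.910), which was -0.64 as deposited. The fibrillins are structural proteins of the plastoglobule surface. AT2G35490 (FBN2) had a log2 difference of 0.08 (SE 0.15), which was -0.17 as deposited, -0.15 scaled to the total and -0.10 after the correction for neighbours. AT2G46910 (FBN8) had one of -0.02 (SE 0.37), with pair values from 0.475 to 1.24 in pete1 pete2 and from 0.718 to 0.754 in WT. AT3G24190 (ABC1K6), an atypical kinase, had one of -0.09 (SE 0.35). The median of all features, -0.27 as deposited and -0.26 scaled to the total, was not subtracted from the values of PGM48 and FBN2.

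Of the 24 genes for thylakoid organisation, 1 besides FZL was measured, and of the 21 dynamin-family and plastid division genes only FZL. AT1G74730 (RIQ2), a thylakoid protein that affects grana stacking, had pair values of 0.0873, 0.289 and 0.507 in pete1 pete2 and 0.511, 0.600 and 0.415 in WT. Its log2 difference was -1.10 (SE 0.69; limma adjusted p = 0.973). Mutant column 2 was listed at 0, and the difference was -0.45 without that column and -0.39 without mutant pair 1. It was -1.75 without mutant column 1, -1.66 without mutant pair 3 and -2.03 with array weights.

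Tocopherol, a lipid stored in plastoglobules, is made from a phytyl chain, and 2 of the 11 genes for its synthesis and that of plastoquinone were measured. AT1G78620 (VTE6), the phytyl phosphate kinase, averaged 0.873 ± 0.122 in pete1 pete2 and 0.539 ± 0.0141 in WT (SD, n = 3 each), a log2 difference of 0.69 (SE 0.12; limma adjusted p = 0.401). AT1G74470 (CHLP), the geranylgeranyl reductase, had a log2 difference of -0.02 (SE 0.15), which was 0.22 with columns centred on their medians. Of the 13 genes around plastocyanin, PSAN, a photosystem I subunit on the lumenal side, was measured, with a log2 difference of 0.12 (SE 0.17). After quantile normalization PG18 and VTE6 were the 2 of the 9 genes whose mutant pairs all exceeded the WT pairs, beside 5.56% of all features. As deposited neither gene's groups were separate, since the columns of VTE6 mutant pair 1, at 0.630 and 0.665, reached below those of WT pair 1, at 0.654 and 0.703. The log2 difference of VTE6 was 0.41 after the correction for neighbours. 0 of the 7 leaf markers and 0 of the 8 root markers had a feature of their own, so the tissue was not checked here. If the RNA came from whole tissue, fewer green cells and less transcript per cell cannot be told apart.

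**Figure D4:**
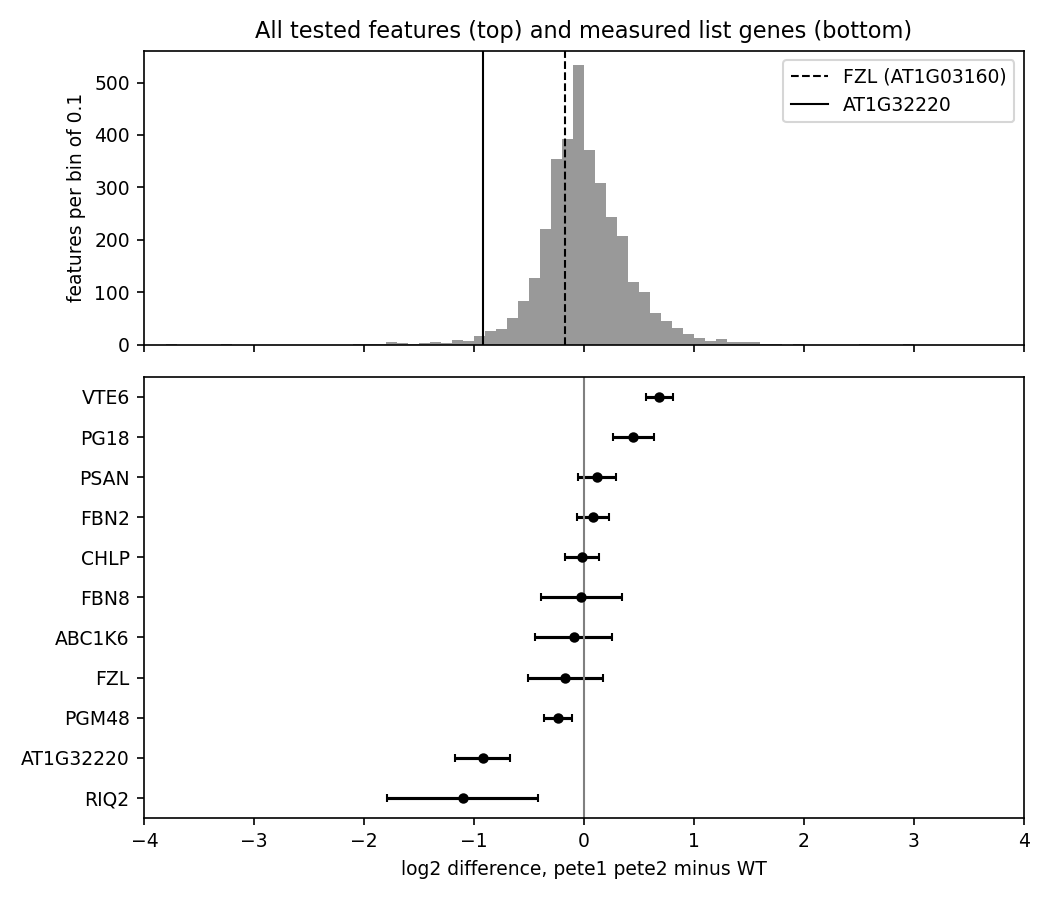
The top panel is a histogram of the log2 difference, pete1 pete2 minus WT, over all 3438 tested features (bins of 0.1), with FZL (dashed line, -0.17) and AT1G32220 (solid line, -0.92). The bottom panel shows the log2 difference (points) and its standard error (bars) for the 2 genes and the 9 other measured genes of the lists, from VTE6 at 0.69 to RIQ2 at -1.10.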

How the data were processed

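The deposited table held 1 linear intensity value per feature and sample, as the authors left it. The scanner, software, background correction and scaling are not given in the sources used here. Samples were grouped by their titles. The columns were quantile normalized, a floor of 0.0225 was set, the 1st percentile of intensities above 0, before log2 was taken. Paired columns were averaged on the log2 scale, as were the features of the 1 gene that had several, which left 3438 rows to test. Features were named where the platform annotation gave 1 gene; 690 of 692 identifiers matched the TAIR10.1 gene table, used for names only. Differences were fitted with limma 3.58.1 (R 4.3.3), as two-sided tests with moderated standard errors, over all features, with Benjamini-Hochberg adjustment at 0.05. The fit was tested on simulated data with independent noise for each feature. That test covered the size of the fitted differences and the sign of those called. It did not include the correlation between features with nearby numbers. The p-values reflect the variation among these samples alone, possibly technical, and the number of arrays limits the precision.

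The genes, lists and tests were chosen with earlier results of these data known. Beside the 2 genes, those named are the 3 with the highest Pearson r to each and every measured gene of a list (for the plastoglobule list, all 6 and not the 4 brightest, an extension made after the values were seen). The alternatives were other scalings, a pseudocount, filters on dim features, other variance models, blocks, single columns, a correction for neighbouring features and omissions. No sequences are shown.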

Additional observations from a re-analysis of the deposited data

How the results depend on the processing

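The cause of the changes below was not tested except where fewer samples or features enter by construction. The log2 difference of AT1G32220 was negative under all 30 alternatives that gave a value, and went beyond the spread between pairs with the values as deposited (-1.34) and scaled to the total (-1.32). Without 1 column or pair it ran from -1.10 to -0.68. The filter that left out the dimmest 50% of features removed AT1G32220, so it has no value there. FZL kept its sign under 28 of 31 alternatives and ran from -0.41 to 0.078 without 1 column or pair. For both genes these counts include settings that cannot move a difference of means. Those are the filters on dim features, the trended and robust variance, the blocks and the fits on 12 columns, which left each difference unchanged. Features called higher numbered 0 as deposited, 0 with median centring, 0 scaled to the total, 0 with the pair number as a replicate block, 15 with the pair as a random block, 149 with the 12 columns as separate samples and 156 with a replicate block on those columns. Both fits on 12 separate columns count paired columns as independent. Features called lower numbered 1 with array weights, 2 after the correction for neighbours, 4 with the random block, 75 with 12 columns and 93 with the block on them. Without 1 column or pair, from 0 to 1 were higher and from 0 to 1 lower.

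The replicate numbers were not taken as a pairing of the genotypes, since not every same-numbered pair had deviations correlated above 0.1 across features (0.32, 0.00056 and 0.39). Pairs of other numbers correlated at -0.40 to 0.16. The deviations were taken from the mean of each genotype and cancel within it, so these values are not independent of those for same-numbered pairs. The check therefore leaves a pairing undecided. A block cannot move a difference of means in this balanced design. Signs changed for FBN2 (-0.17 as deposited, -0.15 scaled to the total, -0.10 after the correction for neighbours), CHLP (0.22 with median centring, 0.15 with array weights), ABC1K6 (0.11 with array weights, 0.15 after the correction), FBN8 (0.12 after it) and AT3G47980 (0.013 after it). The median of all features was itself -0.27 as deposited and -0.26 scaled to the total, and was not subtracted from the FBN2 values. Without 1 column or pair the log2 differences ran from -0.022 to 0.17 for FBN2, -0.14 to 0.075 for CHLP, -0.34 to 0.26 for ABC1K6, -0.41 to 0.28 for FBN8, -0.51 to 0.41 for AT3G47980, -0.86 to 0.26 for AT1G63720, -1.75 to -0.39 for RIQ2 and -0.018 to 0.22 for PSAN. With the 12 columns as separate samples, limma's adjusted p was 0.0016 for VTE6, 0.0305 for AT3G25410 and 0.0496 for AT4G17440. AT3G25410 and AT4G17440 were lower in the mutant and had been picked for likeness to AT1G32220. With the block on the 12 columns, limma's adjusted p was 0.0350 for PG18 and 0.0120 for VTE6. Dim signal limits AT1G32220 in the mutant, as no background values were used here.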
